A study of Mus musculus with 72 samples.

Results

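The hippocampus of untrained mice was compared between the dark phase and the early light phase, across every gene on the array. The comparison used 18 of the 72 arrays of the series, those whose titles name untrained control tissue of the 12-hour and of the 30-minute time point, and it used no measured value to choose them. Both groups held 9 C57BL/6J male mice, 2 months of age, kept singly on 12 hours of light per day and handled daily for 3 days, and none of them was trained or shocked. The CC30 mice were killed at Zeitgeber time (ZT, hours after lights on) 3 and the CC12 mice at ZT 15, that is 3 hours into the light and in the dark. One array was made from the 2 hippocampi of 1 mouse, so n is 9 separate mice in every group and a p-value measures the spread between mice.

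Another 3 groups of 9 mice of the same strain, sex and age were used beside them. CC4 mice were untrained and killed at ZT 7, in the middle of the light phase. FC12 and FC24 mice had received a single 2-s foot shock of 1.5 mA in a conditioning chamber at ZT 3 and were killed 12 and 24 hours later, at ZT 15 and ZT 3, so that they held the same pair of clock times as CC12 and CC30 in separate, trained animals. With 3 clock times in untrained mice, these were comparisons of times of day and not measurements of a rhythm.

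Mice are active in the dark. In nearly every cell a transcription loop keeps circadian time, in which CLOCK and ARNTL (BMAL1) drive the Per and Cry genes, whose proteins then repress them, while REV-ERB and ROR receptors set the level of Arntl. Corticosterone, the glucocorticoid of rodents, peaks near the onset of the dark phase, and brain temperature, feeding and neuronal activity follow the same daily cycle. The hippocampus mixes granule and pyramidal neurons, interneurons, glia and vessels, and its RNA reports on all of them.

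Levels are given as log2 signal of a probe set after the first principal component of all 72 arrays, which carried 17.4% of the variance, was subtracted. A difference of 1 on this scale is a doubling, and probe set signals are compared only between mice, never between genes. Array medians before this step lay between 5.82 and 5.88. On that component CC12 replicate 2 scored 48.77, against -5.8 to 0.154 in the other 8 CC12 mice, and CC30 replicate 3 scored 28.78, against -9.995 to 4.763, so both stood apart before the subtraction, as did 3 arrays of other groups. Another array, CC4 replicate 8, stood apart on the second component, which makes 6. The mean levels of hippocampal principal cell markers overlapped between the groups, from 8.65 to 9.00 in CC30 and from 8.89 to 9.07 in CC12 for 9 genes of CA1 pyramidal cells. The mean of 15 choroid plexus markers, a sign of adjacent tissue in the dissection, ran from 4.78 to 5.96 in CC30 and from 4.95 to 6.92 in CC12.

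At an adjusted p-value (limma, Benjamini-Hochberg over all 35556 probe sets, two-sided) under 0.1, 1243 probe sets differed between CC12 and CC30. Of them 730 were higher in the dark phase, which is 2.05% of all probe sets, and 513 were lower, which is 1.44%. They fell on 879 named genes, and 230 of the probe sets also passed 0.01. The changes were small, with a median fold of 1.14 among the called probe sets, 30 above 1.5-fold and 2 above 2-fold, against a median standard error of 0.050 on the log2 scale. The 9 CC12 values lay wholly above the 9 CC30 values for 71 probe sets (0.2% of all) and wholly below them for 53 (0.149%). The count was 822 when those 6 arrays were left out of the fit, and 394, with 175 higher and 219 lower, when the component was also found again without them.

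**Figure D1:**
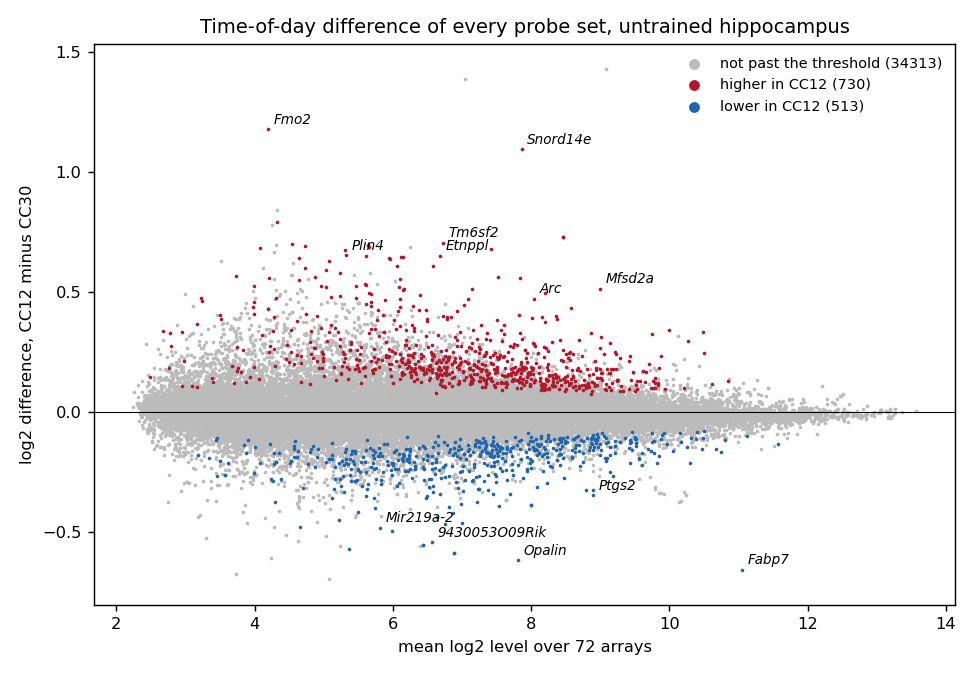
The log2 difference between CC12 and CC30 (vertical axis) of every probe set is plotted against its mean log2 level over 72 arrays (horizontal axis). Red points are the 730 probe sets higher in CC12 and blue points the 513 lower ones at an adjusted p under 0.1, and most of them lie within 0.5 of 0.

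The largest rise past the threshold belonged to Fmo2, a flavin-containing monooxygenase that oxidises drugs and other xenobiotics. Larger positive differences that did not pass included those of the choroid plexus genes Ttr (1.43) and Kcnj13 (1.39). The level of Fmo2 ran from 3.76 to 4.10 in the CC30 mice (median 3.95) and from 4.71 to 5.87 in the CC12 mice (median 4.97). The groups did not overlap, and the log2 difference was 1.18 ± 0.12 (SE), or 2.26-fold (adjusted p = 3.97e-05). Snord14e, a small nucleolar RNA that guides RNA methylation and is encoded within an intron of the heat shock gene Hspa8, ran from 7.18 to 7.43 in the CC30 mice (median 7.31) and from 7.91 to 8.70 in the CC12 mice (median 8.54). All 9 dark-phase mice were above all 9 light-phase mice, by 1.096 ± 0.087 (SE) (2.14-fold, adjusted p = 1.79e-06). The 3 probe sets of Hspa8 itself differed by -0.00011 to 0.0033, none past the threshold.

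Next in size were Tm6sf2, a lipid-handling membrane protein (0.71 ± 0.10 (SE), adjusted p = 0.00118), Plin4, a coat protein of lipid droplets (0.65 ± 0.092 (SE), adjusted p = 0.000887), and Etnppl, an astrocyte enzyme that degrades phosphoethanolamine (0.65 ± 0.14 (SE), adjusted p = 0.0207). In each of these 3 genes 8 of 9 CC12 mice exceeded the highest CC30 mouse. Mfsd2a carries docosahexaenoic acid across the endothelium of the blood-brain barrier, and it had the smallest standard error of the 15 largest rises. Its level ran from 8.71 to 8.97 in the CC30 mice (median 8.85) and from 9.23 to 9.49 in the CC12 mice (median 9.38), with every CC12 mouse above every CC30 mouse, and the difference was 0.51 ± 0.039 (SE) (adjusted p = 1.36e-06). The remaining 9 of the 15 were Tnfrsf25 (0.56), Hif3a (0.53), Inmt (0.52), Dnase1l2 (0.51), Cdh19 (0.51), Xdh (0.49), Noxred1 (0.49), Ctsk (0.48) and Arc (0.47), as log2 differences with adjusted p between 0.000298 and 0.00893.

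The largest fall past the threshold was that of Fabp7, the brain fatty acid binding protein of astrocytes and radial glia. Fabp7 ran from 10.97 to 11.35 in the CC30 mice (median 11.21) and from 10.47 to 10.66 in the CC12 mice (median 10.57). The groups were fully apart, with a fall of 0.66 ± 0.046 (SE), or 1.58-fold (adjusted p = 5.26e-07). Opalin, a membrane protein of myelinating oligodendrocytes, ran from 7.88 to 8.10 in the CC30 mice (median 7.99) and from 7.02 to 7.68 in the CC12 mice (median 7.44), again with no overlap (difference -0.62 ± 0.069 (SE), adjusted p = 8.85e-05). The non-coding transcript 9430053O09Rik (-0.54 ± 0.057 (SE)) and the miRNA gene Mir219a-2 (-0.48 ± 0.071 (SE)) followed, and both were lower in all 9 CC12 mice than in any CC30 mouse.

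Among the other large falls were enzymes and surface proteins. Ptgs2, the inducible cyclooxygenase that neurons use to make prostaglandins, ran from 8.87 to 9.17 in the CC30 mice (median 8.90) and from 8.51 to 8.76 in the CC12 mice (median 8.63), without overlap (difference -0.35 ± 0.050 (SE), adjusted p = 0.00111). Bche, butyrylcholinesterase, differed by -0.35, Mmp14, a membrane-bound matrix metalloproteinase, by -0.35, Mcam, an adhesion molecule of vessel walls, by -0.39, and Unc5b, a netrin receptor, by -0.34. Kcnj2, an inwardly rectifying potassium channel, differed by -0.36, and it was the single gene among these 30 that no longer passed when the component was found again without the 6 arrays. The rest were Cstad (-0.46), Oacyl (-0.42), Lmcd1 (-0.36), the linker histone H1f2 (-0.34) and the calcium-binding protein S100a16 (-0.32), the adjusted p of these 11 falls lying between 7.46e-05 and 0.0107.

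**Figure D2:**
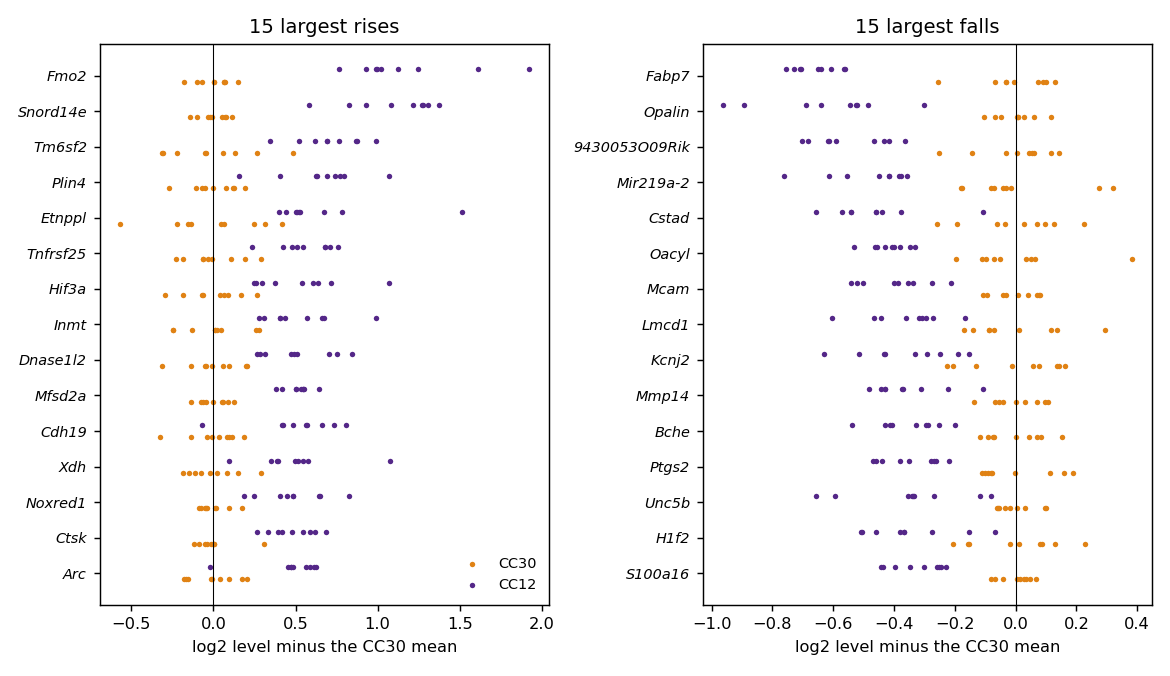
Each dot is 1 mouse, and the horizontal axis gives its log2 level minus the mean of the 9 CC30 mice, for the 15 largest rises (left) and the 15 largest falls (right) past the threshold. CC12 mice (purple) and CC30 mice (orange) do not overlap in Fmo2, Snord14e, Mfsd2a, Fabp7 or Opalin, and a single CC12 mouse lies among the CC30 mice in Arc and Cdh19.

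Of 21 measured genes of the circadian clock, 8 rose in the dark phase and 1 fell, where 2.68% of the 18820 genes taken with 1 probe set each rose and 1.86% fell. The counts of every later list are to be read beside these shares of all genes. Called members of this and the following lists beyond the 4 largest were named after their values were seen. Of 8 repressors 6 rose. All 3 Period genes, whose proteins close the loop on CLOCK and ARNTL, were higher. Per2 ran from 7.24 to 7.62 in the CC30 mice (median 7.36) and from 7.69 to 7.89 in the CC12 mice (median 7.77), with no overlap and a difference of 0.38 ± 0.052 (SE) (adjusted p = 0.000626). Per3 differed by 0.29 ± 0.043 (SE) (adjusted p = 0.00120) and Per1 by 0.25 ± 0.047 (SE) (adjusted p = 0.00791), each with 8 of 9 CC12 mice above the highest CC30 mouse.

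Cry1, the partner repressor of the Period proteins, rose by 0.24 (adjusted p = 0.0178), while Cry2 stood at 9.14 ± 0.06 in CC30 and 9.14 ± 0.046 in CC12 (mean ± SD). Ciart, a repressor of CLOCK and ARNTL that is itself strongly rhythmic, rose by 0.39 with both of its probe sets past the threshold, and ran from 7.69 to 8.05 in the CC30 mice (median 7.92) and from 8.03 to 8.39 in the CC12 mice (median 8.32). Bhlhe41 (DEC2), which competes for E-boxes, rose by 0.28, whereas its paralog Bhlhe40 differed by 0.091 (adjusted p = 0.554). Nr1d2 (REV-ERBβ), a repressor of Arntl, rose by 0.23 in 1 of its 2 probe sets, the other differing by 0.061. Tef, an output factor that binds D-boxes, rose by 0.11 (adjusted p = 0.0638).

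Arntl, the activator, moved the other way. It ran from 7.36 to 7.64 in the CC30 mice (median 7.60) and from 7.14 to 7.43 in the CC12 mice (median 7.27), with 7 of 9 CC12 mice below the lowest CC30 mouse, a difference of -0.29 ± 0.041 (SE) and an adjusted p of 0.000854. Its partners did not pass the test, with Clock at 9.17 ± 0.068 in CC30 and 9.16 ± 0.076 in CC12 and Npas2 at 9.25 ± 0.15 in CC30 and 9.30 ± 0.096 in CC12. Rora, Rorb, Hlf, Nfil3, the casein kinases Csnk1d and Csnk1e, Fbxl21 and Btrc also stayed short of it, with differences between -0.12 and 0.11. Finding the component again without the 6 arrays left 6 clock genes higher and 1 lower, Bhlhe41 and Tef no longer passing.

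**Figure D3:**
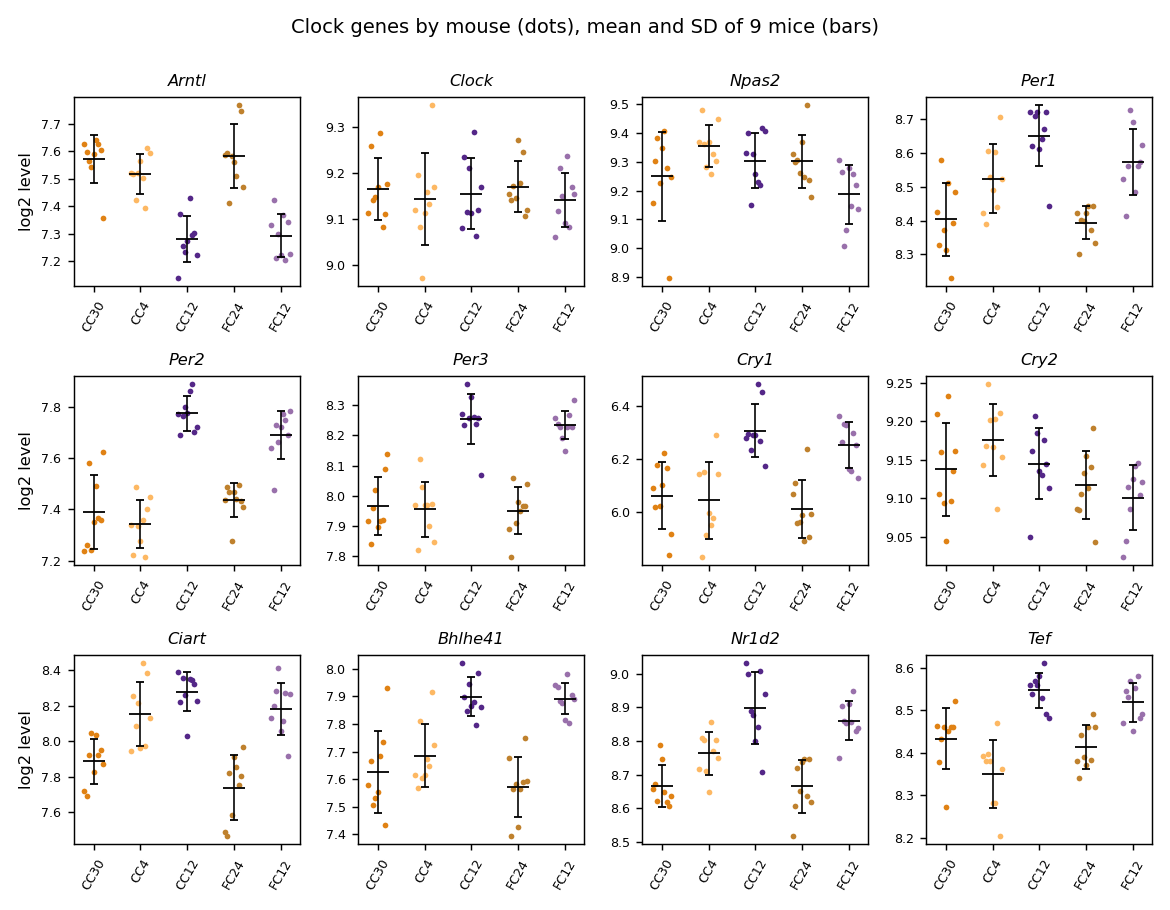
Log2 levels of 12 clock genes by mouse (dots) in untrained mice at ZT 3 (CC30), ZT 7 (CC4) and ZT 15 (CC12) and in trained mice at ZT 3 (FC24) and ZT 15 (FC12), with the mean and SD of 9 mice as black bars. Per2 and Per3 were near their ZT 3 level at ZT 7 and higher at ZT 15 in untrained mice, Arntl was lowest at ZT 15, and Clock and Cry2 overlapped at all times.

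The promoters of the clock genes that passed are shown because they hold the letters that clock transcription factors bind. Of the 9 genes, 8 had a promoter in the RefSeq table (GRCm38.p6, 250 bases before to 50 after the start) and 7 held an E-box (CACGTG), a D-box (TTANGTAA) or a ROR element (TAGGTCA) on either strand, with these letters in capitals here. Arntl carried a ROR element, Per3 a pair of D-boxes, Ciart 3 E-boxes, and Per1, Cry1, Bhlhe41 and Tef 1 E-box each. Tef had another start with 1 E-box, and Arntl and Per1 each another start without any of the 3 motifs, none of them shown, and Nr1d2 held none of the 3 motifs in this window.
Arntl, chr7:113207261-113207560, plus strand: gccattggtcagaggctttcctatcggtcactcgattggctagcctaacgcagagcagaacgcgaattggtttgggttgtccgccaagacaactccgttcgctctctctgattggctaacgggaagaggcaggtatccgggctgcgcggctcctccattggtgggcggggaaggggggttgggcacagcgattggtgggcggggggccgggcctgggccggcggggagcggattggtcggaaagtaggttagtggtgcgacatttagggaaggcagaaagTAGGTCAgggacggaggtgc
Per3, chr4:151044616-151044915, minus strand: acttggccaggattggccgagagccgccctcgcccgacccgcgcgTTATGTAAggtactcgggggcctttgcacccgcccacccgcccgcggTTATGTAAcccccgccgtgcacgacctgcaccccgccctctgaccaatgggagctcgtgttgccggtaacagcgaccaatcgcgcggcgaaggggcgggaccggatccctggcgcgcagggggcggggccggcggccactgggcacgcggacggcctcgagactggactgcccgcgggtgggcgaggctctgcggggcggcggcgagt
Ciart, chr3:95882179-95882478, minus strand: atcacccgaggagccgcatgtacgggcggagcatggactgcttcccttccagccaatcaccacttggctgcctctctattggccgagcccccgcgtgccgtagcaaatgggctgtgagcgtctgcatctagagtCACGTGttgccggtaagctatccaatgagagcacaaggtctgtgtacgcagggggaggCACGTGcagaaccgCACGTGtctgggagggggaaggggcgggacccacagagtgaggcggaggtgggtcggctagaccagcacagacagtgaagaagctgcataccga
Per1, chr11:69098699-69098998, plus strand: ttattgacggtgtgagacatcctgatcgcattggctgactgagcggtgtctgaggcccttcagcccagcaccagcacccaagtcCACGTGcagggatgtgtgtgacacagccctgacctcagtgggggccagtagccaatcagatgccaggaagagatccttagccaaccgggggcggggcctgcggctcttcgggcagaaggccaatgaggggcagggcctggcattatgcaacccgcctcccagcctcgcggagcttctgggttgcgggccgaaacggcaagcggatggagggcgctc
Cry1, chr10:85185005-85185304, minus strand: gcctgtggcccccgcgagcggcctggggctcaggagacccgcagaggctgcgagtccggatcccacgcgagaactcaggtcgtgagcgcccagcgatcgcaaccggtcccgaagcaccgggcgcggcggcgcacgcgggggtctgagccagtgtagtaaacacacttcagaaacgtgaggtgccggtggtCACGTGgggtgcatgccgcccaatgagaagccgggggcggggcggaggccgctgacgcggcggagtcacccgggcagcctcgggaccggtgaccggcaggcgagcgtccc
Bhlhe41, chr6:145865371-145865670, minus strand: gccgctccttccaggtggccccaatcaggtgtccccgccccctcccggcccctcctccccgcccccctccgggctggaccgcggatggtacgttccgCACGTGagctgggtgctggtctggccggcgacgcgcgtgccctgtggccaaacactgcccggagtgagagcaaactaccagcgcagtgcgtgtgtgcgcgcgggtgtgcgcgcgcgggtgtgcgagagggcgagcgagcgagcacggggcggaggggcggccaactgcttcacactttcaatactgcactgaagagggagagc
Tef, chr15:81802423-81802722, plus strand: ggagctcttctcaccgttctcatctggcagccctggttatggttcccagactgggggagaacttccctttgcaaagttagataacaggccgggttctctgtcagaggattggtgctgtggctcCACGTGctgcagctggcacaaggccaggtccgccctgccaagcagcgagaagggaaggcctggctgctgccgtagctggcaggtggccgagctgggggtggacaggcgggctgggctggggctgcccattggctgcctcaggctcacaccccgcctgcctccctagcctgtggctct

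The same letters were counted in every promoter. An E-box was present in 10.7% of the 412 promoters of genes that rose, 9.82% of the 275 of genes that fell and 9.57% of all 14749 promoters of genes on the array. A D-box was present in 2.43%, 3.64% and 2.35%. The ROR element was found in 0.971% of the rising, 3.64% of the falling and 2.64% of all promoters, and the 10 falling genes that held it included Arntl, Fabp7, S100a16 and Dhcr7. The ER stress element stood in 0.728% of the rising promoters, namely Creld2, Dnajc3 and Ero1b, and in 0.136% of all. A palindromic glucocorticoid response element stood in 1.21% of the rising and 0.468% of all promoters, and in 0 of the 275 falling ones. The rising genes that held it were Slc38a11, Folh1, Map3k6, Fam107a and Suox. Of these only Map3k6 is a called member of the glucocorticoid list below. The other 5 searches gave shares of rising, falling and all promoters of 1.21%, 1.09% and 1.42% for the sterol response element, 0.485%, 0% and 0.583% for the heat shock element, 2.43%, 2.91% and 2.77% for the cAMP response element, 1.46%, 0.364% and 0.78% for a shorter form of it and 47.6%, 42.9% and 41.9% for the CCAAT box. These shares are descriptions of the letters in the windows and were not tested. The promoters of Fmo2 and Plin4, of the largest rises, had been set for display beforehand. That of Fmo2 held none of the motifs searched and that of Plin4 only a CCAAT box, and neither is shown. The promoter of Fabp7, the largest fall past the threshold, was chosen for display after its values were seen, with its ROR element on the opposite strand in capitals.
Fabp7, chr10:57784673-57784972, plus strand: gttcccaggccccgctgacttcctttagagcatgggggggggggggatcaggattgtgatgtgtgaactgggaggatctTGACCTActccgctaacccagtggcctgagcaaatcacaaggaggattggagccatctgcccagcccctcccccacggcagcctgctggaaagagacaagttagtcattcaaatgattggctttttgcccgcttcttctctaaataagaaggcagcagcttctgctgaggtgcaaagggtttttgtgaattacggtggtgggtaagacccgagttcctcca

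Many glucocorticoid-responsive genes rose. Corticosterone acts through the receptor Nr3c1 on a set of targets shared by many tissues. Of the 29 measured targets 13 rose and none fell. The median log2 difference of the 29 was 0.14, beside -0.0017 over all genes measured. The list, like all others here, was set with earlier results of these data known. Its counts describe the list and do not test it. Of the 3 receptors and enzymes, the mineralocorticoid receptor Nr3c2 fell by 0.18 (adjusted p = 0.0186). Fmo2, Plin4, Mfsd2a, Hif3a and Xdh, described above or named among the largest rises, belong to this list. The other risers of the list are named here with their values known. Tsc22d3 (GILZ), a direct and fast target that dampens inflammation, was 6.83 ± 0.094 (SD) in CC30 and 7.27 ± 0.13 in CC12, a difference of 0.45 ± 0.053 (SE) (adjusted p = 0.000178). Fkbp5, the co-chaperone that lowers the receptor's affinity for its hormone, rose by 0.25 (adjusted p = 0.00525).

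Smaller rises were those of Slc2a1 (0.24), Sult1a1 (0.21), Nfkbia (0.21), Rasl11b (0.21), Errfi1 (0.17) and Map3k6 (0.15), with adjusted p from 0.000773 to 0.0986. The metallothioneins Mt1 and Mt2, also known targets, did not pass, at 10.33 ± 0.12 in CC30 and 10.41 ± 0.1 in CC12 and 12.38 ± 0.068 in CC30 and 12.38 ± 0.081 in CC12. With the component found again without the 6 arrays, 8 members of the list rose and 1 fell. The mean of the choroid plexus markers reached higher in CC12 than in CC30 (6.92 against 5.96), 0 of the 15 passed in limma (1 at an unadjusted p under 0.05, and 0 under every alternative), and their part in these rises was not tested.

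Transport genes of the vessel wall rose in part. Among 15 measured transport genes of the endothelium 5 rose and 1 fell, and among 16 junction and identity genes 1 fell and none rose. Mfsd2a and Slc2a1, already counted in the glucocorticoid list, are among the 5. Slc2a1 (GLUT1), the glucose carrier of the barrier, ran from 10.31 to 10.47 in the CC30 mice (median 10.41) and from 10.51 to 10.75 in the CC12 mice (median 10.65), without overlap (difference 0.24 ± 0.034 (SE), adjusted p = 0.000773). The organic anion carrier Slco1a4 rose by 0.22 (adjusted p = 0.00222), and the efflux pumps Abcg2 and Abcb1a (P-glycoprotein) by 0.23 and 0.18 (adjusted p = 0.0399 and 0.0220). Slc30a1, a zinc exporter, fell by 0.18, and Pecam1, an endothelial adhesion molecule, fell by 0.17 (adjusted p = 0.0777). Of the amino acid carrier, Slc3a2 differed by 0.045 and Slc7a5 by 0.11, neither past the threshold. The mean of all 31 endothelial genes ran from 7.64 to 7.77 in CC30 and from 7.69 to 7.77 in CC12. With the component found again without the 6 arrays, 3 genes of the list rose and 4 fell, Abcb1a and Abcg2 no longer passing and Cldn5 and Tek newly passing.

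Some markers of mural cells, the pericytes and smooth muscle of vessels, fell. Of 10 mural cell genes 3 fell: Pdgfrb, the growth factor receptor of pericytes (-0.14, adjusted p = 0.0114), Vtn, vitronectin (-0.19, adjusted p = 0.0407), and Kcnj8, a subunit of their ATP-sensitive potassium channel (-0.17, adjusted p = 0.0981). The smooth muscle genes Acta2 and Myh11 differed by -0.20 and 0.052 and Rgs5 by 0.026, none past the threshold. Of the 10 differences 5 were above 0. Between FC12 and FC24 Vtn also fell past the threshold, and Pdgfrb and Kcnj8 did not pass. In whole tissue fewer cells of a type and less RNA per cell cannot be told apart, here and for every cell type below. Kcnj8 did not pass without the 6 arrays.

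Some genes of glucose entry and its control rose. Of 25 genes, 4 rose and none fell: Slc2a1 (above), Slc2a3, the neuronal glucose carrier (0.098, adjusted p = 0.0943), Pfkfb3, which makes the activator of phosphofructokinase (0.18, adjusted p = 0.0360), and Ppp1r3g, a glycogen-targeting subunit of protein phosphatase 1 (0.25, adjusted p = 0.0271). The median log2 difference of the list was -0.00032. The aldolases Aldoa and Aldoc differed by 0.0037 and -0.0041. Slc2a1 alone of these passed with the component found again without the 6 arrays.

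Genes of sterol synthesis fell in part. Of 27 genes of cholesterol synthesis, its control and uptake, 4 fell and none rose. Insig1, the sterol-sensing anchor of the SREBP pathway and itself an SREBP target, ran from 8.98 to 9.26 in the CC30 mice (median 9.19) and from 8.82 to 9.02 in the CC12 mice (median 8.93), with 6 of 9 CC12 mice below the lowest CC30 mouse (difference -0.25 ± 0.040 (SE), adjusted p = 0.00253). Dhcr7, the last enzyme of the pathway, ran from 7.98 to 8.16 in the CC30 mice (median 8.06) and from 7.76 to 7.97 in the CC12 mice (median 7.89), without overlap (difference -0.20 ± 0.035 (SE), adjusted p = 0.00476). Msmo1, a methylsterol oxidase, and Stard4, a cytosolic cholesterol carrier, fell by 0.18 and 0.18 (adjusted p = 0.0232 and 0.0242). Of the members that did not pass, Apoe differed by -0.026 and Fdft1 by -0.054, neither past the threshold, and the median of the list was -0.038. All but Msmo1 also passed with the component found again without the 6 arrays.

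Fatty acid genes changed in both directions. Of 12 binding and transport genes Mfsd2a and Plin4 rose and Fabp7 and Slc27a1, a fatty acid importer (-0.13, adjusted p = 0.0276), fell. Of 13 oxidation genes Ppara, the nuclear receptor that drives that pathway, rose by 0.21 (adjusted p = 0.0301), a call lost when the component was found again without the 6 arrays. Scd2 and Fads1, desaturases that did not pass, differed by -0.014 and 0.013, neither past the threshold.

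Chaperones of the endoplasmic reticulum rose in part. Of 26 genes of the unfolded protein response 5 rose and none fell, with a list median of 0.066. Sdf2l1, an ER stress-induced component of the chaperone complex, ran from 7.93 to 8.39 in the CC30 mice (median 8.16) and from 8.15 to 8.74 in the CC12 mice (median 8.54) (difference 0.39 ± 0.070 (SE), adjusted p = 0.00519). The co-chaperone Dnajc3 (P58IPK) rose by 0.26 (adjusted p = 0.00193), the disulfide isomerase-like Creld2 by 0.29 (adjusted p = 0.0395), the secreted factor Manf by 0.22 (adjusted p = 0.0670) and Herpud1, of ER-associated degradation, by 0.18 (adjusted p = 0.0851). The lectin chaperones Canx and Calr did not pass, at -0.040 and 0.0060. Of the ER list 3 genes passed without the 6 arrays, Creld2 and Manf no longer passing, and none when the component was found again without them.

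Of 16 cytosolic heat shock genes the HSP40 proteins Dnajb1 (0.23, adjusted p = 0.0122) and Dnajb4 (0.11, adjusted p = 0.0464) rose, and Hspa8 and Hsp90aa1 did not pass, at 12.44 ± 0.023 in CC30 and 12.44 ± 0.04 in CC12 and 11.14 ± 0.05 in CC30 and 11.13 ± 0.035 in CC12. Both rises were lost when the component was found again without the 6 arrays. The cold-inducible RNA-binding protein Rbm3, whose transcript is tied to temperature, rose in all 3 of its probe sets. It ran from 10.08 to 10.44 in the CC30 mice (median 10.36) and from 10.54 to 10.83 in the CC12 mice (median 10.67), without overlap (difference 0.33 ± 0.045 (SE), adjusted p = 0.000623). Its relative Cirbp was at 8.55 ± 0.13 in CC30 and 8.53 ± 0.13 in CC12.

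Genes that neuronal activity induces passed in both directions. Of 48, 5 rose and 3 fell, and of the 24 transcription factors among them 1 rose, Ier3 (0.18, adjusted p = 0.0818), and none fell. Arc, which links activity to AMPA receptor removal, ran from 7.58 to 7.97 in the CC30 mice (median 7.75) and from 7.74 to 8.38 in the CC12 mice (median 8.24) (difference 0.47 ± 0.077 (SE), adjusted p = 0.00253), with 8 of 9 CC12 mice above the highest CC30 mouse and 1 at the CC30 level. Gadd45b, involved in DNA demethylation, rose by 0.36 (adjusted p = 0.0181), and the MAP kinase phosphatases Dusp5 and Dusp6 by 0.25 and 0.26 (adjusted p = 0.0197 and 0.0870).

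In the opposite direction, Bdnf, the neurotrophin of synaptic plasticity, ran from 6.02 to 6.18 in the CC30 mice (median 6.09) and from 5.77 to 5.98 in the CC12 mice (median 5.88), without overlap (difference -0.20 ± 0.032 (SE), adjusted p = 0.00197), and Ptgs2 (above) and Nptx2, a pentraxin that gathers AMPA receptors (-0.23, adjusted p = 0.0333), were lower as well. Nrn1 and Nr4a2, which did not pass, differed by -0.074 and 0.014. The acetyltransferases of CREB-driven transcription, Crebbp and Ep300, differed by 0.062 ± 0.022 (SE) and 0.071 ± 0.024 (SE) (adjusted p = 0.180 and 0.164). With the component found again without the 6 arrays 2 genes of the list rose and 2 fell, Gadd45b, Dusp6, Ier3 and Nptx2 no longer passing.

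**Figure D4:**
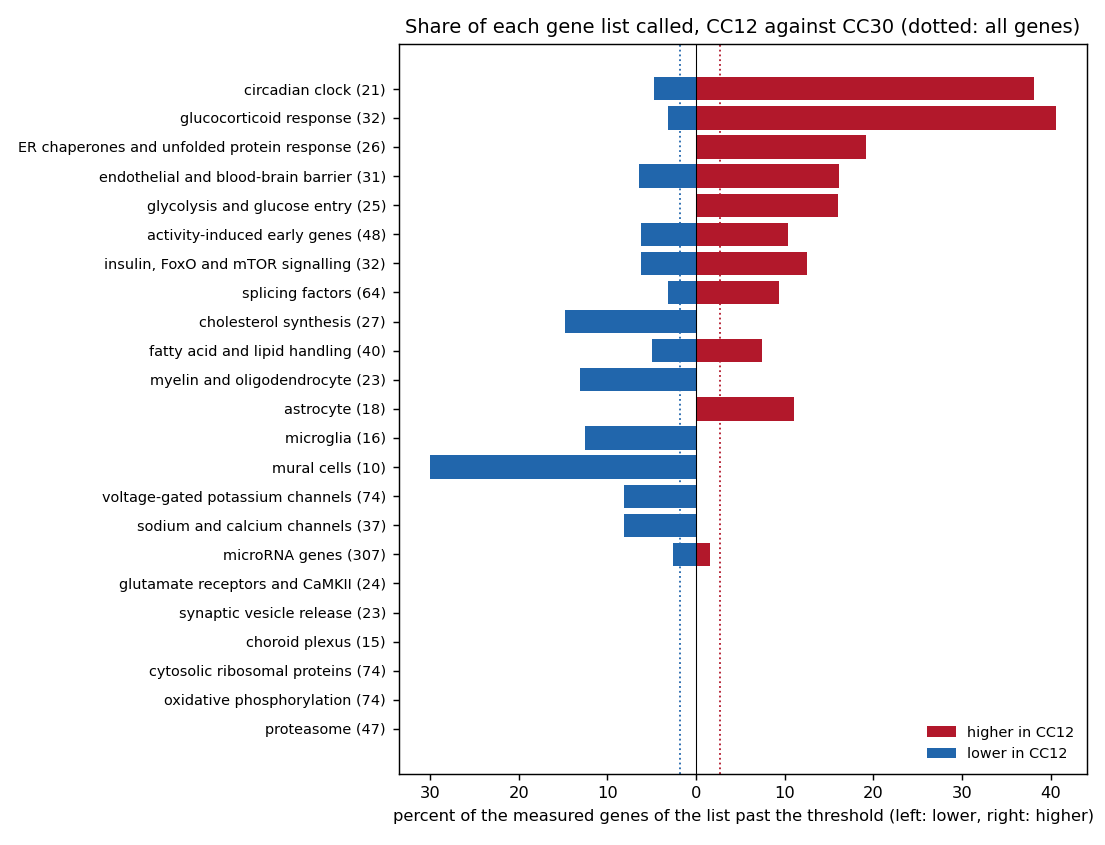
For a selection of the 46 lists, bars give the percent of measured genes in each list (number of genes in brackets) that were higher (red, right) or lower (blue, left) in CC12 at an adjusted p under 0.1, and dotted lines give the shares over all genes, 2.68% and 1.86%. Of the lists drawn, the clock and glucocorticoid lists reach farthest to the right with 8 of 21 and 13 of 32 genes, and the 6 at the bottom hold no called gene.

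Ion channel genes that passed were lower in the dark. Of 74 potassium channel subunits 6 fell and none rose, where 1.86% of all genes fell and 2.68% rose. Kcna4, a rapidly inactivating A-type channel, ran from 8.06 to 8.42 in the CC30 mice (median 8.38) and from 7.92 to 8.11 in the CC12 mice (median 7.997), with 7 of 9 CC12 mice below the lowest CC30 mouse (difference -0.30 ± 0.047 (SE), adjusted p = 0.00222), beside Kcnj2 and Kcnj8 (above), the silent subunit Kcnv1 (-0.18), Kcnb2 (-0.14) and the glial channel Kcnj10 (-0.084). Kcnab2 and Kcnd2, which did not pass, differed by 0.0010 and 0.0038. The largest positive difference of the list, 1.39, was that of Kcnj13, a channel of the choroid plexus that also stands in that marker list, and it did not pass. Of 37 sodium and calcium channel subunits Cacng2 (stargazin, -0.12), Cacng3 (-0.11) and Cacng6 (-0.18) fell, of which the first pair are auxiliary subunits of AMPA receptors, while Scn2a and Scn3b differed by 0.013 and 0.017. A single potassium channel gene, and no sodium or calcium channel gene, passed with the component found again without the 6 arrays.

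Glutamate receptor and vesicle genes did not pass. The count was 0 of 24 glutamate receptor and CaMKII genes by limma (3 at an unadjusted p under 0.05, all lower, and at most 1 under any alternative), with Camk2a at 12.61 ± 0.032 in CC30 and 12.61 ± 0.031 in CC12 and Gria1 at 12.05 ± 0.057 in CC30 and 12.02 ± 0.043 in CC12. It was 0 of 23 synaptic vesicle genes (2 at an unadjusted p under 0.05, 0 under every alternative), with Snap25 and Syt1 at -0.037 and -0.022. Of 12 GABA receptor subunits Gabra2 fell by 0.17 (adjusted p = 0.0181), and of 39 transmitter and peptide receptors the serotonin receptor Htr1a rose by 0.16 (adjusted p = 0.0937), both lost when the component was found again without the 6 arrays. Of 23 neuropeptide genes Chgb, a granin of dense-core vesicles, fell by 0.13 (adjusted p = 0.0227), and Sst and Cck differed by -0.046 and -0.050.

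Oligodendrocyte genes fell in part. Of 23, 3 fell and none rose, with a list median of -0.089: Opalin (above), Olig2, the lineage transcription factor (-0.22, adjusted p = 0.0197), and Gpr37, a receptor of maturing oligodendrocytes (-0.19, adjusted p = 0.0335). The myelin enzyme Cnp differed by -0.13 and the tight junction gene Cldn11 by 0.071, neither past the threshold, and the mean of the 23 genes ran from 8.17 to 8.26 in CC30 and from 7.91 to 8.26 in CC12. Of 16 microglial genes the fractalkine receptor Cx3cr1 fell, running from 7.93 to 8.13 in the CC30 mice (median 8.05) and from 7.64 to 7.89 in the CC12 mice (median 7.86) without overlap (difference -0.25 ± 0.040 (SE), adjusted p = 0.00265), as did Siglech (-0.15, adjusted p = 0.0987), while C1qb and Csf1r differed by -0.070 and -0.052. The mean of the 16 ran from 7.09 to 7.15 in CC30 and from 6.96 to 7.19 in CC12. Gpr37 and Siglech did not pass when the component was found again without the 6 arrays.

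Of 18 astrocyte genes, the growth factor receptor Fgfr3 rose, running from 8.38 to 8.56 in the CC30 mice (median 8.45) and from 8.56 to 8.74 in the CC12 mice (median 8.72) without overlap (difference 0.24 ± 0.029 (SE), adjusted p = 0.000185), and so did the gap junction protein Gjb6 (0.18, adjusted p = 0.0567), whose call was lost without the 6 arrays. Glul and Aldoc, which did not pass, differed by 0.0097 and -0.0041, and the mean of the list ran from 9.38 to 9.41 in CC30 and from 9.35 to 9.43 in CC12. Among 12 dentate granule cell markers Pdzd2 rose. It ran from 6.68 to 6.92 in the CC30 mice (median 6.74) and from 7.02 to 7.30 in the CC12 mice (median 7.18). The groups did not overlap, and the difference was 0.42 ± 0.039 (SE) (adjusted p = 1.10e-05). C1ql2 (-0.25) and Plk5 (-0.22) fell, and Calb1 differed by -0.043. Between FC12 and FC24 Pdzd2 also passed, and C1ql2 and Plk5 did not. Of the 9 CA1 markers Lefty1 (0.29) and Gpr161 (0.22) rose. Of the 12 CA2 and CA3 markers Tgfb2 (-0.17) fell, as did Nos1 (-0.15) of the 17 interneuron markers. Of these, Plk5, Lefty1, Gpr161, Tgfb2 and Nos1 did not pass when the component was found again without the 6 arrays.

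Of 20 genes of neural progenitors and immature neurons, Ccnd2, a cyclin of the adult neurogenic niche, rose by 0.21 and Sox11 by 0.16, and Id2 fell by 0.17, all 3 lost when the component was found again without the 6 arrays. Markers of tissues next to the hippocampus gave 0 calls in limma. This held for 15 choroid plexus genes (1 at an unadjusted p under 0.05, all 15 differences above 0 and from 0.15 to 1.43), 9 ependymal (0 at that p), 15 meningeal and perivascular fibroblast (2), 6 blood cell (0) and 12 thalamic, habenular, cortical and striatal genes (1).

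Non-coding RNAs made up a small share of the calls. Of 58 small nucleolar RNA genes by annotation 5 rose (8.62%) and none fell, against 2.68% and 1.86% over all genes. In a list of 59 by name, Snord14e led, followed by Snora20 (0.27), Snora33 (0.21) and Snora21 (0.12), guides of pseudouridylation, while Snord104 and Snora52, which did not pass, differed by 0.041 and 0.021. Snora20 and Snora33 did not pass when the component was found again without the 6 arrays. Of 313 lncRNA genes 7 rose (2.24%) and 9 fell (2.88%), against 2.68% and 1.86% over all genes.

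Of 303 miRNA genes by annotation 5 rose and 8 fell, so the shares, 1.65% and 2.64%, were near those over all genes. The signal may come from the precursor, the host transcript around it or the processed miRNA, which this array does not tell apart. The 5 with an adjusted p under 0.01 are shown as mature sequences, since the seed (bases 2 to 8, in capitals) sets which messages a miRNA recognises, and 11 of the 13 called genes had an entry in the RefSeq table (GRCm38.p6). Mir219a-2, the miRNA of oligodendrocyte maturation, fell by 0.48, Mir128-2, a neuronal miRNA, by 0.31, and Mir107 by 0.27, while Mir384 rose by 0.27 and Mir505 by 0.27 (adjusted p = 0.00120, 0.00206, 0.00475, 0.00243 and 0.00766).
mmu-miR-219a-5p, chr2:29845689-29845709, minus strand: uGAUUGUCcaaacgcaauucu
mmu-miR-128-3p, chr9:112118644-112118664, minus strand: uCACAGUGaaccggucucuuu
mmu-miR-128-2-5p, chr9:112118679-112118701, minus strand: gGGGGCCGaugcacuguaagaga
mmu-miR-107-3p, chr19:34820700-34820722, minus strand: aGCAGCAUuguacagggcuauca
mmu-miR-107-5p, chr19:34820737-34820759, minus strand: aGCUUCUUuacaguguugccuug
mmu-miR-384-5p, chrX:105344332-105344354, minus strand: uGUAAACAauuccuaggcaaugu
mmu-miR-384-3p, chrX:105344292-105344313, minus strand: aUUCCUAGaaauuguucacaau
mmu-miR-505-3p, chrX:60394416-60394437, minus strand: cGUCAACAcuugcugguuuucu
mmu-miR-505-5p, chrX:60394451-60394473, minus strand: gGGAGCCAggaaguauugauguu

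Genes that share these seeds did not all follow. Mir219a-1, the other source of miR-219a-5p, was at 4.46 in CC30 and 4.38 in CC12 (adjusted p = 0.600), and Mir128-1, with the same seed as miR-128-3p, differed by -0.17 (adjusted p = 0.113). Mir103-1 and Mir103-2, which carry the seed of miR-107-3p, differed by -0.093 and 0.16. The seed of miR-384-5p is that of the miR-30 family, of which Mir30b, not in the sequence table, rose by 0.28 (adjusted p = 0.0592) and Mir30a, Mir30c-1, Mir30c-2 and Mir30e lay between -0.16 and 0.046, none past the threshold. The 8 other called genes were Mir218-2 (-0.31), Mir497 (-0.26), Mir138-2 (-0.21), Mirlet7a-2 (-0.17), Mir342 (-0.16), Mir377 (0.25), Mir151 (0.24) and Mir30b. With the component found again without the 6 arrays 1 miRNA gene rose and 4 fell.

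Of the kinases that phosphorylate SR splicing factors, Clk1 and Clk4 rose. Clk1 ran from 8.92 to 9.10 in the CC30 mice (median 9.03) and from 9.16 to 9.49 in the CC12 mice (median 9.31), without overlap (difference 0.29 ± 0.042 (SE), adjusted p = 0.00119), and Clk4 rose by 0.18, among 6 of 64 splicing genes that rose, with Tra2a, Tra2b, Srsf10 and Sfpq between 0.098 and 0.14. Tardbp (TDP-43) and Celf4 fell, by 0.13 and 0.080. Of 50 chromatin modifiers the deacetylase Sirt1 (0.13) and the demethylase Kdm5c (0.11) rose and the acetyltransferase Kat6b (-0.11) fell. The chromatin modifier counts lie near the shares over all genes, 2.68% higher and 1.86% lower. Of 45 histone genes H1f2 and the replacement histone H3f3b (-0.15) fell. When the component was found again without the 6 arrays 1 splicing gene, Clk1, rose and 1, Tardbp, fell, no chromatin modifier passed and 1 histone gene fell.

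In the insulin pathway 4 of 32 genes rose and 2 fell, where 2.68% of all genes rose and 1.86% fell. Akt2, the kinase of insulin action, was lower in both of its probe sets, running from 10.33 to 10.41 in the CC30 mice (median 10.38) and from 10.06 to 10.21 in the CC12 mice (median 10.17) without overlap (difference -0.21 ± 0.024 (SE), adjusted p = 0.000108), and Igfbp5 fell by 0.16, whereas Igfbp3, the main carrier of insulin-like growth factor, rose by 0.28 and the transcription factor Foxo3 by 0.15, with Rictor (0.096) and Sesn1 (0.12) beside them. Akt1 and Tsc2 differed by -0.0019 and 0.017. Only Akt2 passed when the component was found again without the 6 arrays.

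Of 28 immune genes the interferon factor Irf9 rose, running from 6.59 to 6.92 in the CC30 mice (median 6.85) and from 7.01 to 7.33 in the CC12 mice (median 7.10) without overlap (adjusted p = 0.00193), with the NF-κB inhibitors Nfkbia and Tnfaip3 (0.19). Nfe2l2 (NRF2), the regulator of antioxidant genes, rose by 0.24 (adjusted p = 0.00417) and Txnrd1, one of its targets, by 0.12, of 25 genes. Of 44 matrix and growth factor genes Bmp4 (0.27), Timp3, an inhibitor of metalloproteinases (0.22), and Vcan (0.18) rose and Mmp14 and Tgfb2 fell. Over all genes 2.68% rose and 1.86% fell. Olfactory receptors, a family the hippocampus hardly uses, gave 1 rise and 6 falls among 979 genes. Nfkbia, Tnfaip3, Txnrd1, Bmp4, Timp3, Tgfb2 and every called olfactory receptor did not pass when the component was found again without the 6 arrays.

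Genes of basal machinery did not pass. By limma 0 of 74 cytosolic ribosomal protein genes passed (2 at an unadjusted p under 0.05), 0 of 74 mitochondrial ribosomal protein genes (9), 0 of 74 nuclear genes of oxidative phosphorylation (0), 0 of 47 proteasome genes (3) and 0 of 61 translation factors (5). Their list medians lay between -0.012 and 0.012 on the log2 scale. Under the alternatives, ribosomal protein, oxidative phosphorylation and proteasome genes stayed at 0, mitochondrial ribosomal protein genes reached 1 higher and 2 lower, and translation factors 1 lower.

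Trained mice allowed the same pair of clock times to be read in other animals. Between FC12 and FC24, 1136 probe sets passed the same threshold, 2.11% of all higher at ZT 15 and 1.08% lower. Of the probe sets higher in untrained mice at ZT 15, 704 of 730 (96.4%) were also higher in FC12 than in FC24, and of the lower ones 479 of 513 (93.4%) were lower, where 50.2% and 49.8% of all probe sets took these directions. Probe sets past the threshold in the same direction in both numbered 465, which is 37.4% of the calls in untrained and 40.9% of those in trained mice, and 0 passed in opposite directions. The median log2 difference in trained mice was 0.14 over the probe sets that rose in untrained mice and -0.10 over those that fell.

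In trained mice Fmo2 differed by 0.96 (adjusted p = 6.01e-05), Plin4 by 0.88, Mfsd2a by 0.57 (adjusted p = 1.88e-09), Fabp7 by -0.79 (adjusted p = 6.77e-08), Opalin by -0.48, Per3 by 0.28 and Arntl by -0.29. Of the 30 largest changes, Inmt (0.19, adjusted p = 0.192), Arc (0.38, adjusted p = 0.102), Mir219a-2 (-0.24, adjusted p = 0.180) and Oacyl (-0.24, adjusted p = 0.121) did not pass there, and Bdnf differed by -0.12 (adjusted p = 0.156). Of the clock list, 8 genes rose and Arntl fell in both pairs, and of the glucocorticoid list 13 rose in both. Other lists were met again only in part. Of the endothelial list 5 genes rose and 1 fell in both pairs, and of the ER list 4 rose. Of the oligodendrocyte list 1 gene fell in both, and its list median in trained mice was 0.027. Of 307 miRNA genes by name 2 fell in both and 0 rose, and of the splicing list 2 rose and 0 fell. No microglial gene and no sodium or calcium channel gene that fell in untrained mice was also called in trained mice. The interaction of time of day and training gave 0 of 35556 probe sets by limma (0%), with 1401 at an unadjusted p under 0.05, a median standard error of 0.071 and 0 also under every alternative.

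**Figure D5:**
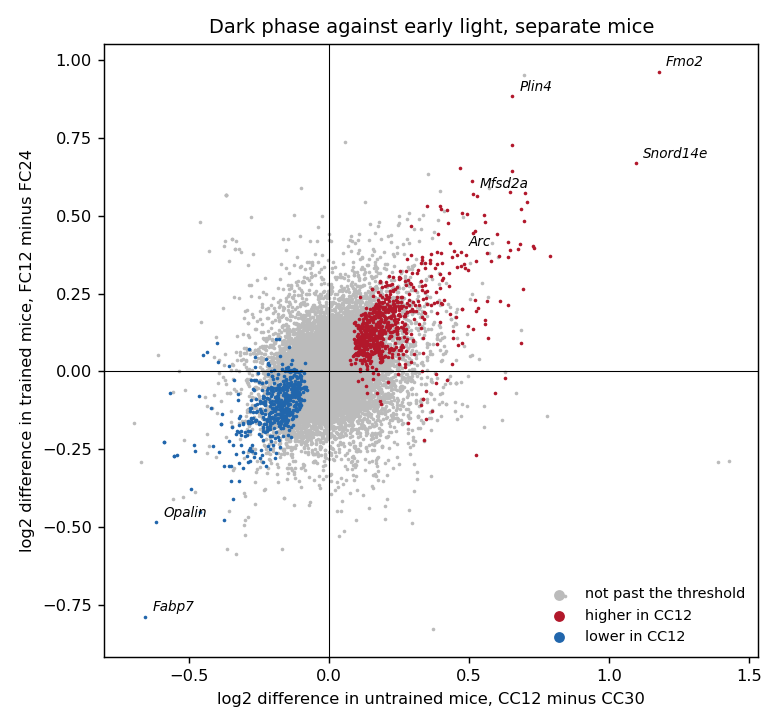
Each point is a probe set, with the log2 difference between CC12 and CC30 in untrained mice on the horizontal axis and that between FC12 and FC24 in trained mice, which share no array with them, on the vertical axis. Of the 730 red points (higher in CC12) 704 lie above 0 on the vertical axis, and of the 513 blue points (lower in CC12) 479 lie below it.

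At ZT 7, in the middle of the light phase, untrained mice stood nearer to ZT 3 than to ZT 15 in the number of calls. CC4 differed from CC30 in 26 probe sets (0.0731%, with 2209 at an unadjusted p under 0.05) and CC12 from CC4 in 1782 (5.01%). These comparisons share mice with the main one, so levels are given side by side. Mfsd2a had a mean of 8.85 at ZT 3, 8.81 at ZT 7 and 9.36 at ZT 15, Fabp7 of 11.22, 11.18 and 10.56, and Per2 of 7.39, 7.34 and 7.77. Among the 26 were Inmt and Rbm3. Inmt, a methyltransferase of indoleamines, had means of 4.70, 5.42 and 5.23 (CC4 against CC30 0.71, adjusted p = 0.0214), and Rbm3 of 10.33, 10.63 and 10.67 (CC4 against CC30 0.29, adjusted p = 0.0202). Ciart stood between, at 7.89, 8.15 and 8.28, its ZT 7 mean not past the threshold against ZT 3 (adjusted p = 0.396).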

How the data were processed

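Hippocampal RNA of 72 mice, 1 array per mouse and 9 mice in each of 8 groups, was measured on Affymetrix Mouse Gene 1.1 array plates. The deposited log2 values were made by the authors with RMA (robust multi-array averaging, which corrects background, normalizes by quantiles and summarises probes) from the mean of 2 sequential scans, so that differences common to a whole array were removed. All 35556 probe sets and 72 columns of the value table were used, with 0 columns of per-sample values left out. The values carry no counts or depth, so precision rests on having 9 arrays in a group.

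The first principal component over the 72 arrays was subtracted. The study's methods also subtract a first component, found after values were standardized against the mean. Here values were centred on each probe set's mean and not scaled, and the component held 17.4% of the variance, so it need not be the study's component. CC12 was compared with CC30 in limma 3.58.1 (R 4.3.3) on their 18 arrays, with moderated statistics, two-sided p-values and Benjamini-Hochberg adjustment over all probe sets, called at an adjusted p under 0.1. FC12 with FC24, CC12 with CC4, CC4 with CC30 and the interaction were fitted alike. The fit was tested on simulated data. Probe sets numbered 21218 with 1 gene symbol, 1881 with several and 12457 with none, and only the first were named. Lists took for each gene the probe set of highest mean level, and 82 symbols in the 46 lists had no such probe set.

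The genes named were the 15 largest rises and 15 largest falls past the threshold, every clock gene, Arc, Bdnf, Crebbp and Ep300. In each list up to 4 called genes and 2 uncalled genes of highest level were named, with others marked as chosen after their values were seen. Groups, lists and rules were chosen with earlier results of these data known. The labels do not say whether replicate numbers pair the mice, and no block was used in the main fit. There were 13 alternatives, on the component, the 6 arrays that stood apart, the model, array weights, the t-test of the study's methods, filters on probe sets and a replicate block, beside local false discovery rates. Tissue had been collected on different days, while RNA was extracted together. The labels do not give the day of collection, so it was not a term of the fit. Any effect of that day stayed in the values.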

Additional observations from a re-analysis of the deposited data

Results flagged for a closer look

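Before its subtraction, the first principal component set 2 arrays of the comparison far from their groups. CC12 replicate 2 scored 48.77, against -5.8 to 0.1541 in the other 8 mice, and CC30 replicate 3 scored 28.78, against -9.995 to 4.763.

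Among 108 combinations of a named gene and a group, 11 held 1 mouse far from the other 8, where chance alone flags about 1 in 20 groups. In CC12, replicate 8 stood apart in 3 genes. Its level was 7.954 in Etnppl, against 6.843 to 7.222 in the others, 6.535 in Xdh, against 5.558 to 6.034, and 7.741 in Arc, against 8.213 to 8.382. CC12 replicate 9 was low in Per1, at 8.442 against 8.612 to 8.722, and in Per3, at 8.068 against 8.235 to 8.369. CC12 replicate 4 was low in Cdh19, at 5.866 against 6.354 to 6.74, and CC12 replicate 5 in Ciart, at 8.032 against 8.223 to 8.39. In CC30, replicate 7 was high in Ctsk, at 5.158 against 4.737 to 4.857, and replicate 5 in Oacyl, at 6.024 against 5.443 to 5.704. CC30 replicate 9 was low in Arntl, at 7.358 against 7.541 to 7.64, and replicate 8 in Npas2, at 8.898 against 9.156 to 9.407.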

How the results depend on the processing

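The number of probe sets that differed between CC12 and CC30, 1243, lay between 1062 and 1543 under 10 alternatives. It was 822 (484 higher, 338 lower) with the 6 arrays that stood apart left out of the fit, 394 (175 higher, 219 lower) when the component was also found again without them, 705 (431 higher, 274 lower) with a replicate block and 553 (393 higher, 160 lower) by local false discovery rates. With the first 2 components removed 589 were higher and 635 lower. For FC12 against FC24 the count was 590 with the component found again and 723 with the replicate block, and for calls shared in direction by both pairs 131 and 236. The cause of these drops was not tested. The interaction stayed at 0 under all 13. The 131 named genes followed include uncalled clock genes, Crebbp and Ep300, which had no call to lose. Of the rest, 57 lost their call with the component found again, 36 with the replicate block, 22 without the 6 arrays and at most 12 elsewhere. Of uncalled clock genes, Cry2 turned to -0.000651 with 2 components removed and to -0.0045 with the component found again, and Nfil3 to 0.028 without the 6 arrays. Whether replicate numbers pair the mice is not given by the labels. Deviations of same-numbered CC12 and CC30 mice correlated between -0.054 and 0.16, 1 of 9 pairs over 0.1. Of 9 CC12 mice 1 correlated best with its own number. These correlations cannot exclude a pairing.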
